A study of Mus musculus with 8 samples.

Results

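The constitutive proteasome genes described here are the 46 gene symbols, of 22558 in the deposited tables, that start with Psm, a letter from a to g and a digit, without the immunoproteasome genes Psmb8, Psmb9 and Psmb10. They comprise 16 genes of the core 20S particle (8 alpha and 8 beta subunits), 17 subunits of the 19S regulatory particle (6 ATPases and 11 non-ATPases), 3 chaperones that assemble the 19S particle, 4 activators (Psme1 to Psme4), the inhibitor Psmf1 and 4 chaperones that assemble the core (Psmg1 to Psmg4). Psmc3ip, a meiotic recombination factor, matches by name only and is no subunit. Transcripts were measured in 8 mRNA-seq libraries from injured mouse retina, 4 of microglia (libraries 1 to 4) and 4 of infiltrating macrophages (libraries 5 to 8). The donors of both populations were about 5 months old, of mixed C57BL/6 and 129 background and of the genotype Msi1-CreERT2/+; R26R-DTA/+, at day 7 post-injury. CreERT2 is a Cre recombinase that tamoxifen activates, here expressed from the Msi1 locus, and R26R-DTA makes diphtheria toxin A in cells where Cre has acted. All libraries share both alleles and the injury, and no uninjured group was analysed here. The sources used here do not give what GFP in the macrophage titles marks, how the cells were isolated or whether each library came from its own animal, and the protocol text speaks only of RNA taken from retinas. The p-values therefore reflect the variation among these 8 libraries, part of which may be technical.

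The 26S proteasome degrades proteins that carry ubiquitin chains. Its barrel-shaped core has outer rings of alpha subunits, which form the gate, and inner rings of beta subunits, of which Psmb5, Psmb6 and Psmb7 carry the active sites. The 19S particle caps the core, binds ubiquitin, removes it, unfolds the substrate with its ATPase ring and threads it inward. Other caps open the gate without ATP: Psme1 and Psme2 form PA28 alpha-beta, which interferon-gamma induces together with the immunosubunits, Psme3 forms the nuclear PA28 gamma, and Psme4 is a large cap linked to histone turnover. In macrophages, the immunosubunits take the place of the constitutive catalytic subunits in newly made cores and change which peptides are cut for antigen presentation.

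Values are FPKM, in which fragment numbers are divided by transcript length and library size, so levels may be roughly compared between genes. For genes with near-identical copies they also depend on how fragments were assigned to each copy, which was not examined here. In these libraries 44 of the 46 genes passed a filter of at least 1 FPKM in at least 4 libraries. The remaining pair were Psma8, the testis form of an alpha subunit, at 0 to 1.38 FPKM, and Psmb11, the thymus form of a beta subunit, at 0.0331 to 0.464 FPKM. Differences are macrophages minus microglia in log2(FPKM + 1), with standard errors, from limma fitted over 9352 genes; a gene is called when its Benjamini-Hochberg adjusted p is below 0.05. This scale understates the change of low genes.

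The libraries were uneven, and this bears on every value below. Estimated depth was 11.2 to 24.5 M fragments, and a single fragment of a 2 kb transcript then counts for 0.022 to 0.0482 FPKM. Microglia 2 held only 5992 genes at 1 FPKM or more, against 8165 to 10282 in the others. Macrophage 6 had the highest FPKM sum (512049) and macrophage 7 the lowest (207077). The microglial marker Sall1 was at 8.61 to 26.8 FPKM in microglia and at 0 to 0.0352 in macrophages, whereas Ccr2, a receptor of monocytes, was at 0.000678 to 1.53 and 2.64 to 99.4 FPKM. Of the 8 microglial markers, Tmem119 overlapped between the populations at 179 to 339 and 106 to 365 FPKM, and Cx3cr1 at 56.2 to 140 and 30.1 to 119. Summed over each list, the 7 monocyte-derived macrophage markers were at 92.7 to 220 FPKM in microglia and 2964 to 11480 in macrophages, the 5 photoreceptor markers at 17.9 to 118 and 2.67 to 47.0, the 3 Mueller glia markers at 50.7 to 74.7 and 7.84 to 22.9, and the 4 haemoglobin genes at 0.683 to 2435 and 0.581 to 23.7. Cd74 and H2-Ab1 made up most of the macrophage sum. Fn1, of the same list, leaned the other way, at 15.9 to 70.5 FPKM in microglia and 4.29 to 43.4 in macrophages. So did Rlbp1 of the Mueller glia list, at 0 to 0.120 and 0.0673 to 4.21 FPKM. Of the neutrophil list, S100a8 and S100a9 were listed at 0 in microglia and at 18.3 to 92.0 FPKM in macrophages, while Mpo was listed at 0 in 7 libraries and at 0.349 FPKM in macrophage 5. The 3 endothelial markers summed to 0.507 to 2.26 FPKM in microglia and 0.549 to 5.37 in macrophages; Cldn5 was listed at 0 in all 8 libraries and Pecam1 reached 5.31 in macrophage 6. The T cell markers measured, Cd3e, Cd3g and Cd8a, summed to 0.0117 to 0.158 FPKM in microglia and 0.323 to 1.72 in macrophages, with Cd3g at 1.59 in macrophage 6 and Cd3e at most 0.284. Y-linked transcripts summed to 11.7 to 25.8 FPKM in microglia 1 to 3 and to at most 1.97 in the other libraries. The female marker Xist was at 0.000218 to 0.000779 FPKM in microglia 1 to 3. It was at 4.78 in microglia 4 and at 4.84 to 7.94 in macrophages. Read from these transcripts, donor sex followed population apart from microglia 4, so that sex and population cannot be fully told apart here. Values without a library, and with a term for Y-linked expression, are given below. Apart from those values, the part of the marker transcripts above, of depth and of single libraries in the proteasome values was not tested. In such pooled RNA, fewer cells of a type and less RNA per cell cannot be told apart.

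Proteasome transcripts were abundant in both populations, and no gene of the group was called. The 46 genes together took 0.744% ± 0.149 of the FPKM sum in microglia and 0.766% ± 0.138 in macrophages (SD, n = 4 each), over a range of 0.585% to 0.945%. In limma's fit, 0 of the 44 tested members passed an adjusted p of 0.05, where 219 of 9352 genes did (2.34%, with 154 higher and 65 lower in macrophages). At an unadjusted p below 0.05 there were 2 of 44, Psmd4 and Psmg3, against 15% of all tested genes. In 0 of 44 members did the microglial and macrophage libraries fail to overlap, against 7.63% of all tested genes. The smallest change called among all genes was 1.55 on the log2 scale, and the members' standard errors ran from 0.48 to 0.86. Psmg3, at 1.75, was not called, so differences of this size and below can be missed in these libraries.

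The summed FPKM of the members was 2195, 3293, 2298 and 2109 in microglia 1 to 4 and 2465, 4778, 1297 and 1659 in macrophages 5 to 8. Macrophage 6 was thus the highest library and macrophage 7 the lowest, and the populations overlapped. Gene by gene, macrophage 6 was the highest of its population in 40 of the 44 tested members, where it was so for 65.9% of all tested genes, and macrophage 7 was the lowest in 36 of 44, against 60.04% of all tested genes. Within the macrophage libraries the median SD of the members was 0.88 on the log2(FPKM + 1) scale and that of all tested genes 0.74; after scaling each library by the median of its ratios to the geometric mean, these were 0.45 and 0.53. In the microglial libraries the corresponding medians were 0.64 and 0.90 as deposited and 0.63 and 0.93 after scaling.

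**Figure D1:**
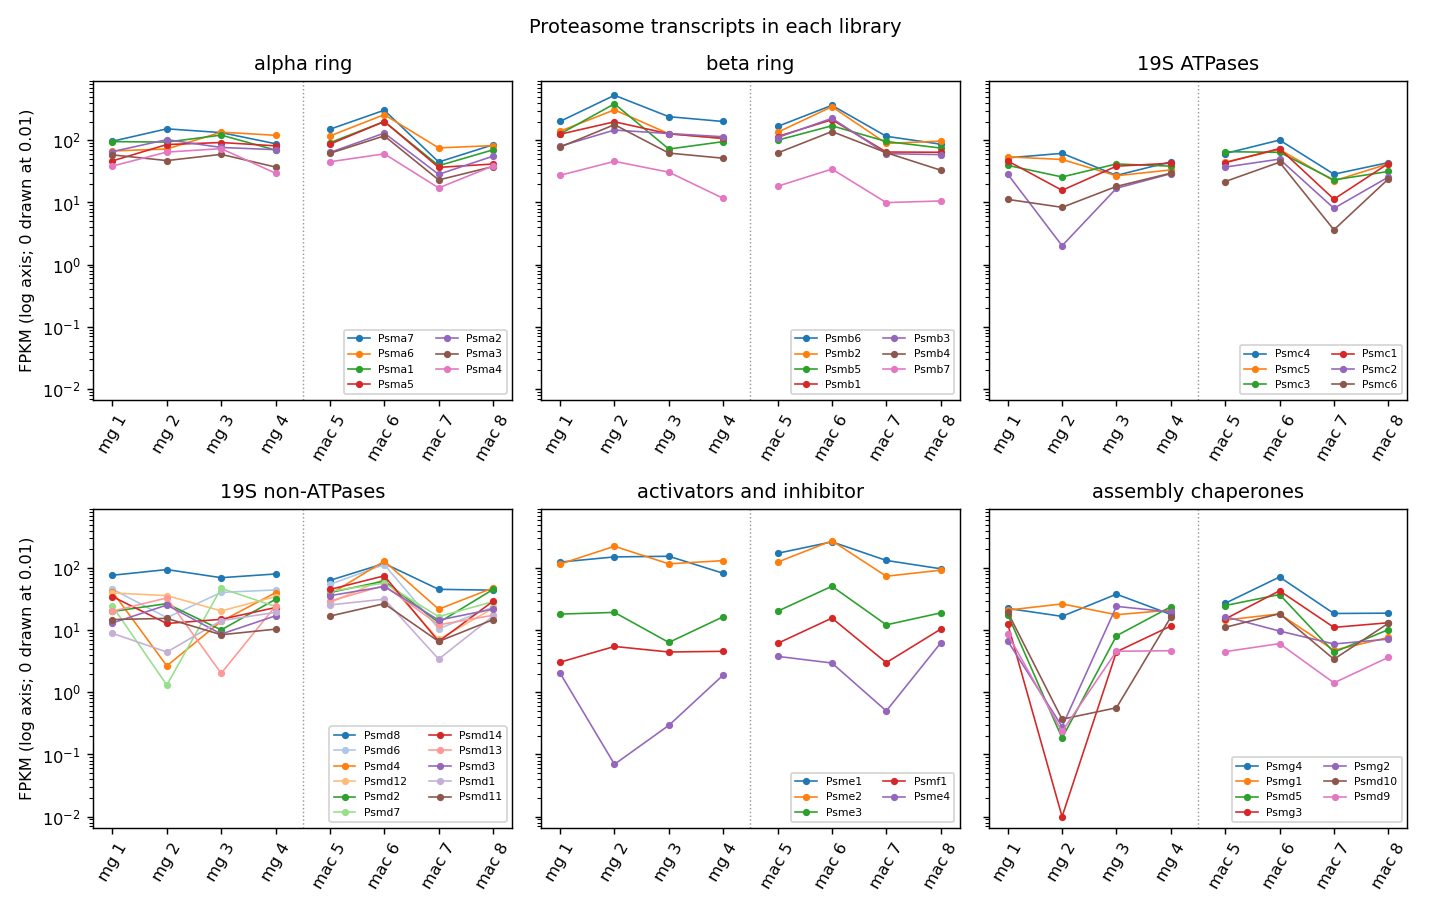
FPKM (log axis) of the 43 tested proteasome genes in each library, by class, with microglia (mg) to the left and macrophages (mac) to the right of the dotted line; lines join the values of one gene and carry no order, and Psmg3, listed at 0 in microglia 2, is drawn at 0.01. Among macrophages 40 of the 44 tested members are highest in library 6 and 36 lowest in library 7, and in microglia 2 the beta subunits stand highest of the microglia while all 3 of the 19S chaperones lie below 1 FPKM.

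The alpha ring, which gates the core, had differences on both sides of 0, from -0.38 for Psma4 to 0.31 for Psma6. Of its 7 tested genes 3 had a difference above 0 and 4 below, with a median of -0.04 beside 0.37 for all 9352 tested genes. Psma7 was the most abundant on average and stood at 96.7, 153, 133 and 88.1 FPKM in microglia and at 151, 305, 44.8 and 84.8 in macrophages. Its lowest and its highest value were thus both from macrophages, and its difference was 0.01 ± 0.54 (95% interval -1.11 to 1.12, adjusted p = 0.997). Psma4 was the least abundant, at 51.6 ± 20.9 FPKM in microglia and 40.4 ± 18.0 in macrophages (SD, n = 4 each), a difference of -0.38 ± 0.54 (adjusted p = 0.792), which was -0.62 without macrophage 6, -0.61 without microglia 4 and -0.03 without macrophage 7. The order within the ring was only partly stable: Psma7 was the highest in 5 libraries and Psma6 in 3, while Psma4 was the lowest in 5 and Psma3 in 3. The mean levels of the ring's genes lay within 2.87-fold of each other. Without macrophage 6 the ring's median became -0.53, and without macrophage 7 it became 0.28.

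Among tested genes, the beta ring held the most abundant proteasome transcript and the least abundant core transcript, and both encode catalytic subunits. All 7 tested genes had a difference below 0, with a median of -0.36, and 0 were called; the median was -0.11 without microglia 2 and -0.68 without macrophage 6. Psmb6, the caspase-like subunit (mm9, chr11:70338859-70341360), was at 202, 531, 240 and 201 FPKM in microglia and at 167, 366, 116 and 86.8 in macrophages. Microglia 2 stood far above the other 3 microglial libraries, and macrophage 6 above the other macrophages, so that the ranges overlapped; the difference was -0.76 ± 0.51 (adjusted p = 0.507), and it was -0.44 without microglia 2, -0.48 without macrophage 8 and -1.17 without macrophage 6. Psmb5, the chymotrypsin-like subunit (mm9, chr14:55232957-55236832), was at 127, 387, 72.5 and 95.3 FPKM in microglia and at 100.5, 171, 95.9 and 75.2 in macrophages. Its difference of -0.36 ± 0.53 (adjusted p = 0.799) became 0.14 without microglia 2. Psmb7, the trypsin-like subunit, was at 27.4, 45.9, 30.7 and 11.7 FPKM in microglia and at 18.2, 34.5, 9.96 and 10.6 in macrophages, a difference of -0.66 ± 0.60 (adjusted p = 0.656) that ran from -1.02 without microglia 4 to -0.39 without microglia 2.

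Levels within the beta ring spanned a wider range than within the alpha ring, and this rested on Psmb7. Psmb7 was the lowest of the 7 tested beta genes in 8 of 8 libraries, and Psmb6 the highest in 7; Psmb2, a subunit without an active site, was the highest in macrophage 8. Mean FPKM was 239 for Psmb6, 169 for Psmb2, 141 for Psmb5 and 23.6 for Psmb7, and the highest and lowest means lay 10.1-fold apart. Without Psmb7 the beta means lay within 2.86-fold, beside 2.87-fold for the alpha ring. Within single libraries the ratio of the highest to the lowest beta gene ran from 7.37 to 17.2.

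Promoter sequence was read for 38 of the 46 members from a RefSeq table (GRCm38.p6; 250 bases before to 50 after each start; 41 windows). The core of the antioxidant response element, TGACNNNGC, which stress-responsive CNC factors such as Nfe2l1 and Nfe2l2 bind, was searched on both strands. It was present in 6 of 38 members and in 14.6% of their windows, beside 12.4% of all 32851 windows. Both catalytic subunits that were matched had it, and the 120 bases before each start are shown, 5′ to 3′ along the gene, with the motif in capitals.
Psmb5, chr14:54617996-54618115, minus strand: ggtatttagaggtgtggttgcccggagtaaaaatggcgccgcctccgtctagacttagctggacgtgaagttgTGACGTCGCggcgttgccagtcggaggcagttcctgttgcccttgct
Psmb6, chr11:70525237-70525356, plus strand: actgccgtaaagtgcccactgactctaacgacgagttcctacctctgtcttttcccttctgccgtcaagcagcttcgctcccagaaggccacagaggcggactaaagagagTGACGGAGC
In Psmb5 the match begins at position -47 and in Psmb6 at position -9, counted back from the annotated start. A match describes these letters and is not shown to be a site. Nfe2l1, which drives proteasome genes when the proteasome is impaired, was at 3.13, 0.703, 17.9 and 15.1 FPKM in microglia and at 6.56, 14.1, 4.55 and 8.33 in macrophages, a difference of 0.37 ± 0.77 (adjusted p = 0.865).

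The 19S particle had a higher median difference than the core, though 0 of its 17 genes were called. All 6 ATPases were above 0, with a median of 0.22, and 9 of the 11 non-ATPases were above 0, with a median of 0.52; relative to the median of all tested genes, 8 of the 17 lay above it and 9 below. Without macrophage 6 the medians were -0.12 for the ATPases and 0.17 for the non-ATPases, and without macrophage 7 they were 0.57 and 1.13; without microglia 2 they were 0.06 and 0.32. In the core, 3 of 14 tested genes were above 0 and 0 lay above the median of all genes. Psmd4, the ubiquitin receptor Rpn10 (mm9, chr3:94836627-94846467), was at 41.4, 2.67, 13.9 and 40.2 FPKM in microglia and at 37.8, 129, 21.8 and 47.8 in macrophages. Microglia 2 was lowest and macrophage 6 highest, with the other libraries intermixed. The difference was 1.47 ± 0.71, with an unadjusted p of 0.0499 and an adjusted p of 0.333, and it became 0.72 without microglia 2.

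Psmc4, the most abundant ATPase on average, was at 46.6 ± 14.6 FPKM in microglia and 58.7 ± 31.3 in macrophages (SD, n = 4 each), and it was the highest ATPase in 5 libraries. Its difference of 0.24 ± 0.53 (adjusted p = 0.874) became -0.07 without macrophage 6. Psmc6, the least abundant on average, had a difference of 0.21 ± 0.68 (adjusted p = 0.923), which became -0.05 without microglia 2 and -0.22 without macrophage 6. The largest difference in the ATPase ring was that of Psmc2, which was at 28.6, 2.02, 16.9 and 29.0 FPKM in microglia and at 37.1, 49.9, 8.07 and 25.6 in macrophages. Apart from microglia 2, its microglial values lay within the macrophage range, and the difference was 0.82 ± 0.72 (adjusted p = 0.633), but 0.06 without microglia 2.

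Among non-ATPases, Psmd8, a subunit of the lid, was the most abundant and was the highest in 6 libraries, Psmd4 being the highest in the remaining 2. Its values were 76.6, 94.5, 69.9 and 80.3 FPKM in microglia and 63.3, 118, 45.5 and 44.1 in macrophages. With a difference of -0.35 ± 0.49 (adjusted p = 0.791), -0.66 without macrophage 6 and -0.19 without macrophage 8, it was one of the 2 non-ATPases below 0. Psmd11, another lid subunit, which promotes assembly of the 26S particle, had the lowest mean of the class, with 12.3 ± 3.42 FPKM in microglia and 16.2 ± 8.28 in macrophages (SD, n = 4 each). Its difference was 0.27 ± 0.61 (adjusted p = 0.876) and -0.01 without macrophage 6. The deubiquitinase of the lid, Psmd14, had a difference of 0.52 ± 0.65 (adjusted p = 0.759).

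A sequence feature was more frequent in 19S than in core promoters. The core of the motif bound by ETS factors, CCGGAAG on either strand, was present in 15 of the 38 matched members and 39.0% of their windows, beside 8.86% of all windows. It was in 9 of 14 matched 19S genes, 2 of 4 activators, 2 of 3 matched core chaperones and 1 of 12 matched core genes (Psma6). Stretches of 120 bases from an ATPase, the ubiquitin receptor and an activator are shown with the motif in capitals, to set beside their values; those of Psmc6 and Psme3 end at the base before the start and that of Psmd4 ends at position -36.
Psmc6, chr14:45329704-45329823, plus strand: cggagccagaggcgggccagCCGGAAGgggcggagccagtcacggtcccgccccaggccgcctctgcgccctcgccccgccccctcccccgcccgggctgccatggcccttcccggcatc
Psmd4, chr3:95042650-95042769, minus strand: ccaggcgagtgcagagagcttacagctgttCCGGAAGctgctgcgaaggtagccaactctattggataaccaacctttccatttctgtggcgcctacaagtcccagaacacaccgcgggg
Psme3, chr11:101316093-101316212, plus strand: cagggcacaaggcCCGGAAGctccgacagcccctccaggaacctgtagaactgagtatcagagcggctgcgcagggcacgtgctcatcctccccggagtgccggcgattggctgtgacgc
Of 10 motifs searched on both strands, of which TGACNNNGC and TGACGTCA share their opening letters, the GC box GGGCGG was in 56.1% of member windows and 35.7% of all, the NRF1 palindrome in 17.1% and 4.60%, and the YY1 core AAGATGG in 17.1% and 6.34%. The NF-Y box CCAAT was in 34.1% and 37.4%, TATAAA in 7.32% and 13.6%, TTCNNNGAA (the interferon-gamma activated site) in 4.88% and 8.30%, the MAF site TGCTGAG in 12.2% and 7.84%, and TGACGTCA in 0% and 1.79%. These shares are descriptions and were not tested.

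The 3 chaperones that assemble the base of the 19S particle varied most between microglial libraries, with a median SD of 1.98 on the log2(FPKM + 1) scale beside 0.90 for all tested genes. Psmd5 was at 17.8, 0.184, 8.13 and 23.8 FPKM in microglia and at 24.9, 37.5, 4.43 and 10.2 in macrophages. Psmd10, the oncoprotein gankyrin, was at 19.5, 0.370, 0.565 and 16.2 FPKM in microglia and at 11.1, 18.4, 3.42 and 12.9 in macrophages. Psmd9 was at 8.61, 0.235, 4.58 and 4.68 FPKM in microglia and at 4.52, 6.08, 1.42 and 3.65 in macrophages. All 3 were thus below 1 FPKM in microglia 2, as were 42.0% of all tested genes there. Their differences of 0.90 ± 0.83, 1.06 ± 0.86 and 0.06 ± 0.74 (adjusted p = 0.661, 0.596 and 0.983) had a median of 0.90, which became -0.05 without microglia 2; Psmd10 alone was 0.42 without it. Psmd9 was also below 0 without macrophage 5 (-0.03) and without macrophage 6 (-0.15).

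By mean FPKM, the activators held 2 of the 5 most abundant transcripts of the group, Psme1 (147) and Psme2 (144), and its rarest tested one, Psme4 (2.22). Psme1 was at 125, 151, 155 and 82.4 FPKM in microglia and at 173, 264, 133 and 97.4 in macrophages. Psme2, its partner in PA28 alpha-beta and its neighbour (mm9, Psme1 at chr14:56197331-56200364 and Psme2 at chr14:56206277-56209938), was at 116, 224, 117 and 132 FPKM in microglia and at 124, 275, 73.8 and 92.4 in macrophages. The ranges overlapped for both. Psme1 had a difference of 0.32 ± 0.48 (adjusted p = 0.802), which was 0.07 without macrophage 6 and 0.12 without microglia 4. Psme2 had one of -0.19 ± 0.50 (adjusted p = 0.896), which became 0.03 without microglia 2 and 0.05 without macrophage 7.

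Psme3, which forms the nuclear PA28 gamma, was at 18.2, 19.3, 6.35 and 16.5 FPKM in microglia and at 20.2, 50.9, 12.2 and 18.98 in macrophages, a difference of 0.63 ± 0.61 (adjusted p = 0.671) that was 0.25 without macrophage 6 and 0.29 without microglia 3. Psme4 was at 2.04, 0.0696, 0.294 and 1.90 FPKM in microglia and at 3.79, 2.96, 0.502 and 6.21 in macrophages. In 3 of 4 macrophage libraries it exceeded every microglial library, and the difference was 1.02 ± 0.62 (adjusted p = 0.453). The difference was 1.46 without macrophage 7, 0.71 without macrophage 8 and 0.75 without microglia 2. Without microglia 2 and 3 it was 0.35, and with a term for Y-linked expression 0.33. Psmf1, the inhibitor PI31, which binds the core, was at 3.06, 5.47, 4.46 and 4.57 FPKM in microglia and at 6.13, 15.7, 3.002 and 10.4 in macrophages. Here too 3 of 4 macrophage libraries lay above every microglial one, with a difference of 0.69 ± 0.68 (adjusted p = 0.684) that was 0.37 without macrophage 6.

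Of the 4 chaperones that assemble the core, Psmg3 had the largest difference of all members and Psmg1 the most negative. Psmg3 was at 12.7, 0, 4.49 and 11.7 FPKM in microglia and at 15.1, 43.1, 11.1 and 13.2 in macrophages, a difference of 1.75 ± 0.77 with an unadjusted p of 0.0331 and an adjusted p of 0.29. It was listed at 0 in microglia 2, an estimate not marked as failed, and the difference was 0.93 without that library. Psmg1 was at 21.0, 26.5, 17.7 and 21.1 FPKM in microglia and at 14.5, 18.3, 4.75 and 7.64 in macrophages. Only macrophage 6 reached into the microglial range, and the difference was -1.02 ± 0.59 (adjusted p = 0.437). Psmg2, at 12.7 ± 11.1 and 9.84 ± 4.69 FPKM (SD, n = 4 each), had a difference of 0.27 ± 0.80 (adjusted p = 0.914) that became -0.64 without microglia 2. Psmg4 stood at 22.4, 16.7, 38.0 and 17.9 FPKM in microglia and at 27.1, 71.8, 18.6 and 18.8 in macrophages, a difference of 0.34 ± 0.58 (adjusted p = 0.826) that became -0.09 without macrophage 6. Psmc3ip, no proteasome subunit, was at 16.2 FPKM in microglia 3 and at 0 to 5.05 in the other libraries, with a difference of 0.35 ± 0.77 (adjusted p = 0.873), and of -0.17 without microglia 2.

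**Figure D2:**
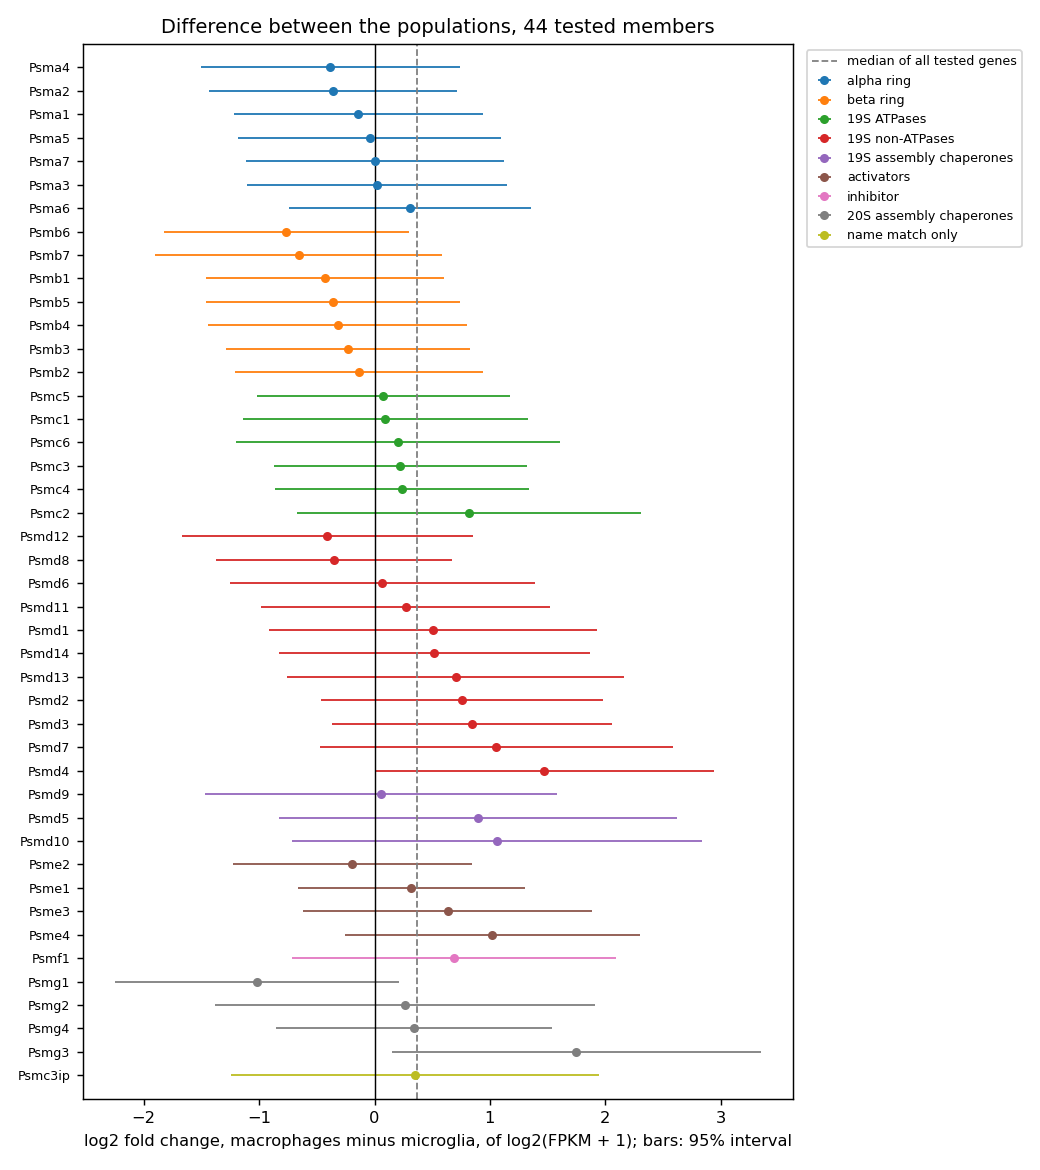
Difference between the populations (macrophages minus microglia, log2(FPKM + 1)) for the 44 tested members, with 95% intervals from limma, coloured by class; the dashed line is the median of all tested genes, 0.37. The 7 beta genes lie left of 0 and the 6 ATPases right of it, the intervals overlap widely, and 0 of the 44 genes were called.

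The class medians depended on how libraries were scaled. Scaling by the median of ratios moved the median of all tested genes from 0.37 to 0.17, of the members from 0.22 to -0.05, of the beta ring to -0.62, of the ATPases to -0.05 and of the non-ATPases to 0.25. Quantile normalization set the median of all tested genes at -0.03, the members at 0.12, the alpha ring at 0.08, the beta ring at -0.22 and the non-ATPases at 0.45, so that the members lay above the median of all genes there and below it as deposited. In all 5 scalings the beta ring had the lowest median of the 4 particle classes and the non-ATPases the highest. All but quantile normalization divide each library by a single factor, which moves the classes nearly alike and can hardly change their order. Adding Y-linked expression as a covariate gave -0.13 for the beta ring, -0.09 for the alpha ring, -0.05 for the non-ATPases and -0.0005 for the ATPases. The ATPases then had the highest median of the particle classes. Microglia 4 is the only microglial library with Y-linked RNA as low as in the macrophages.

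Ratios within a library do not depend on library scaling. Summed core transcripts were 1250, 2417, 1482 and 1188 FPKM in microglia and 1328, 2775, 765 and 838 in macrophages, and summed 19S transcripts were 572, 431, 420 and 568 and 693, 1187, 255 and 521 FPKM. The ratio of 19S to core was 0.458, 0.178, 0.283 and 0.478 in microglia and 0.522, 0.428, 0.333 and 0.621 in macrophages. In each library the core thus exceeded the 19S sum, and the ratios of the populations overlapped, with means of 0.349 ± 0.144 and 0.476 ± 0.124 (SD, n = 4 each). Microglia 2 and 3 were the lowest; without both, the mean log2 difference moved from 0.52 to -0.01.

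Activators took a larger share beside the core in macrophages. The ratio of activator to core sums was 0.209, 0.163, 0.188 and 0.196 in microglia and 0.242, 0.214, 0.286 and 0.256 in macrophages. All 4 macrophage libraries lay above all 4 microglial ones, with means of 0.189 ± 0.0191 and 0.250 ± 0.0303 (SD, n = 4 each) and a log2 difference of 0.40, which stayed between 0.33 and 0.47 when single libraries were left out. The highest microglial and lowest macrophage values, 0.209 and 0.214, were close to each other. With the class median in place of the sum, which gives less weight to Psme1 and Psme2, the log2 difference was 0.21. No p is given for a ratio of sums over chosen members.

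Within the core, the ratio of beta to alpha sums was 1.66, 2.90, 1.14 and 1.38 in microglia and 1.15, 1.18, 1.89 and 1.03 in macrophages. It was highest in microglia 2, where all 7 beta genes were the highest of their population, and in macrophage 7, and the populations overlapped. Core chaperones stood at 0.0502, 0.0180, 0.0569 and 0.0592 of the core sum in microglia and at 0.0552, 0.0515, 0.0528 and 0.0558 in macrophages. Without microglia 2, whose value lay below the rest, the log2 difference of this ratio moved from 0.36 to -0.04.

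**Figure D3:**
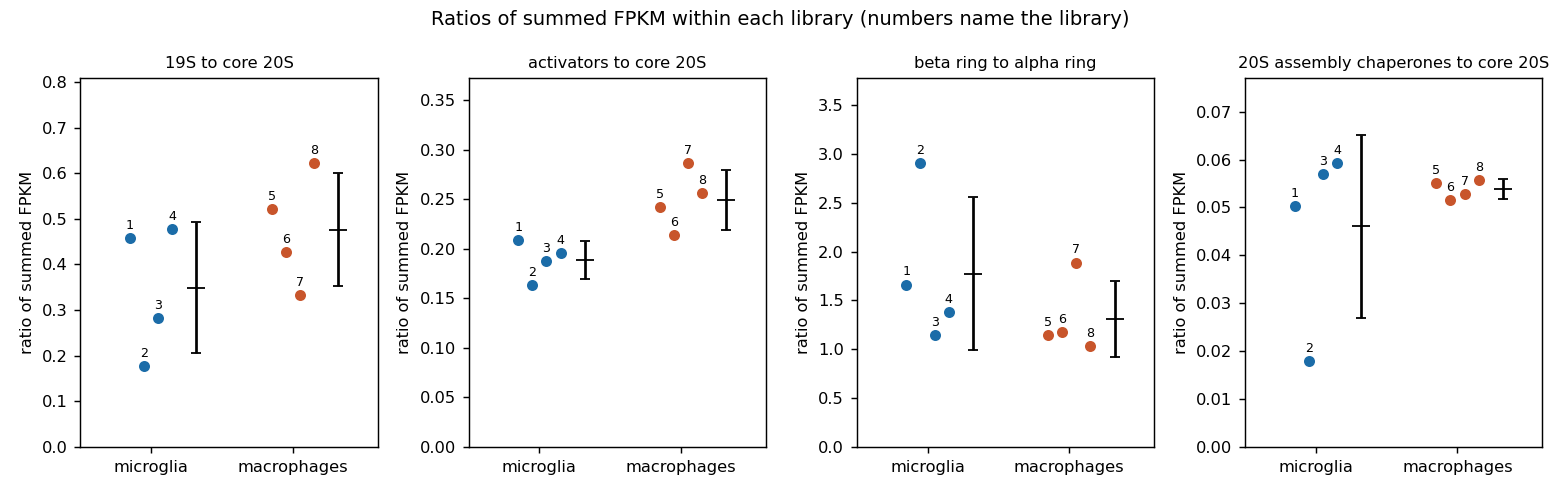
Ratios of summed FPKM within each library (numbers name the library) for 19S to core, activators to core, beta to alpha ring and core chaperones to core, with bars at mean ± SD of the 4 libraries. Only the activator ratio has all macrophage libraries (0.214 to 0.286) above all microglial ones (0.163 to 0.209).

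Each immunosubunit takes the place of 1 constitutive catalytic subunit, and the ratio of the pair was compared with an exact permutation test over libraries (two-sided; 70 arrangements, smallest p 0.0286; adjusted over 3 pairs). Psmb9 over Psmb6 was 0.195, 0.0882, 0.152 and 0.129 in microglia and 0.354, 0.370, 0.662 and 0.757 in macrophages. The populations did not overlap, and the difference in log2 ratio was 1.90 (exact permutation p = 0.0286, adjusted 0.0857). Psmb10 over Psmb7 was 1.02, 0.902, 2.73 and 3.62 in microglia and 3.90, 4.23, 6.21 and 3.57 in macrophages; macrophage 8 lay just below microglia 4, and the difference was 1.33 (exact permutation p = 0.0571, adjusted 0.0857). Psmb8 over Psmb5 overlapped more, at 1.13, 1.13, 2.81 and 1.49 against 2.40, 3.38, 1.71 and 2.47, with a difference of 0.67 (exact permutation p = 0.143, adjusted 0.143). None passed 0.05 after adjustment. Without microglia 4, whose Psmb10 over Psmb7 lay above that of macrophage 8, the first pair of ratios differed by 1.88 and 1.69. Neither ratio then overlapped between the populations, which fixes the exact permutation p at the smallest that so few libraries can reach. Adjusted over the 3 pairs, this exact permutation p was 0.0429 for each. It rests on leaving out the library that overlapped, so no conclusion is drawn from it.

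The immunosubunits and the subunits they replace lay on opposite sides of 0, with none called. In limma's fit Psmb9 had a difference of 1.12 ± 0.50 (adjusted p = 0.299), Psmb10 one of 0.63 ± 0.54 (adjusted p = 0.621) and Psmb8 one of 0.31 ± 0.51 (adjusted p = 0.824), beside differences below 0 for Psmb5, Psmb6 and Psmb7. Psmb8 lay below the median of all tested genes, 0.37, and Psmb5 turned to 0.14 without microglia 2. In FPKM, Psmb6 exceeded Psmb9 in all 8 libraries, whereas Psmb8 exceeded Psmb5 in all 8.

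Among activators, Psme2 over Psme3 was 6.38, 11.6, 18.4 and 7.998 in microglia and 6.16, 5.40, 6.05 and 4.87 in macrophages. The populations did not overlap, though microglia 1 and macrophage 5 lay close together, and the difference in log2 ratio was -0.87 (exact permutation p = 0.0286, adjusted over 3 ratios 0.0857). Psme1 over Psme3 overlapped, at 6.87, 7.81, 24.3 and 5.01 against 8.55, 5.18, 10.9 and 5.13, with a difference of -0.35 (exact permutation p = 0.714, adjusted 0.714) that became 0.13 without microglia 3. Psme4 over Psme3 was 0.112, 0.00360, 0.0463 and 0.115 in microglia and 0.188, 0.0582, 0.0412 and 0.327 in macrophages, a difference of 1.52 (exact permutation p = 0.343, adjusted 0.514), and of 0.39 without microglia 2.

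**Figure D4:**
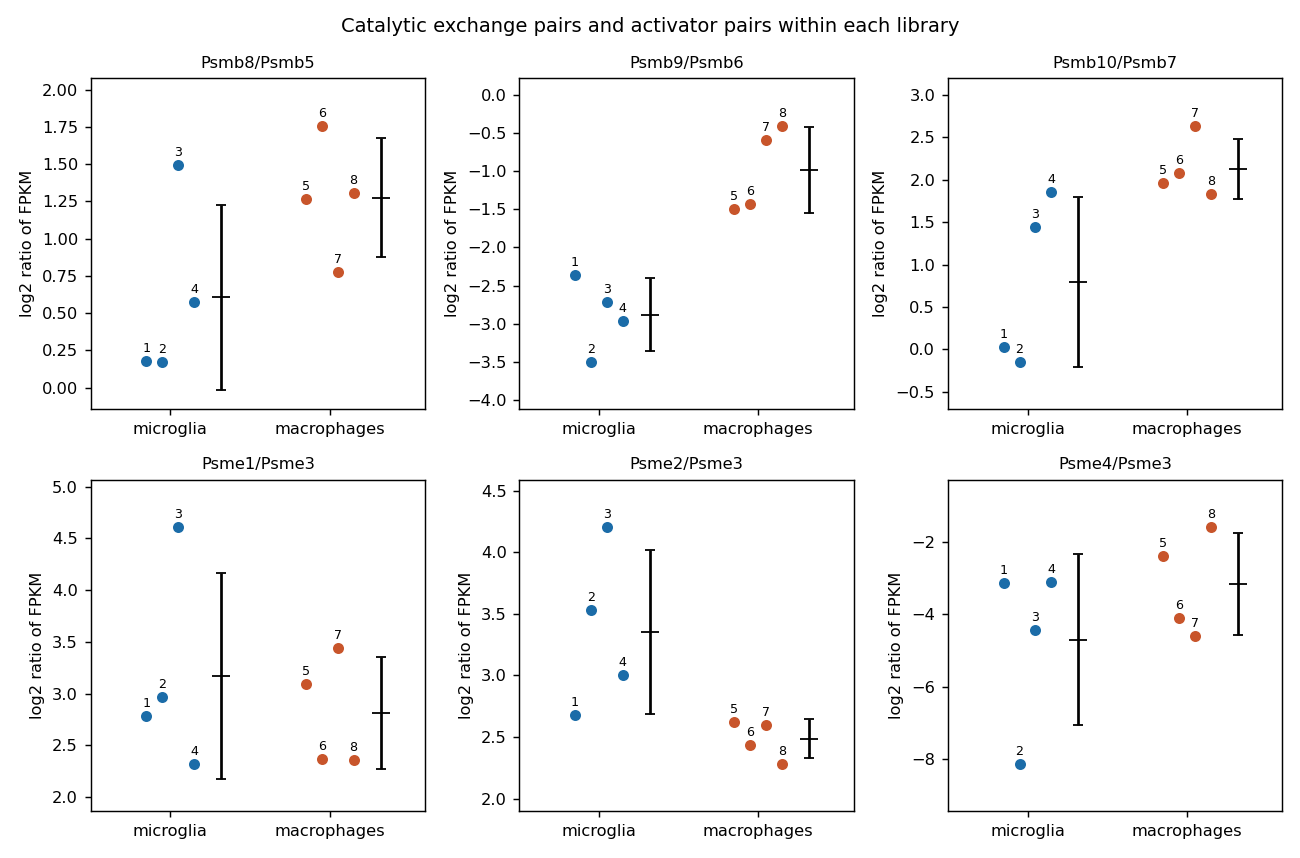
Log2 ratios of FPKM within each library (numbers name the library) for 3 immunosubunits over the catalytic subunits they replace and for 3 activators over Psme3, with bars at mean ± SD of the 4 libraries; axes do not start at 0. Psmb9/Psmb6 is higher in all macrophage libraries and Psme2/Psme3 lower, and the other 4 ratios overlap.

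Other genes of the ubiquitin and proteasome pathway were described from a list of 34, of which 33 were in the tables and 32 were tested. Here too 0 were called, beside 2.34% of all tested genes, 3 (9.38%) had an unadjusted p below 0.05, beside 15%, and the median difference was 0.36. Psmb9 was called when FPKM sums without small RNA were made equal (adjusted p = 0.0454 in limma), and Ubqln4 with library weights (adjusted p = 0.0437). Among those 3 were Psmb9 and Ubqln4 (1.49 ± 0.64, adjusted p = 0.272), which encodes a shuttle factor that carries ubiquitinated proteins to the proteasome. Ubqln4 was at 1.23, 1.93, 0.531 and 0.810 FPKM in microglia and at 4.54, 10.3, 3.12 and 3.41 in macrophages and did not overlap between them. Of the 32 tested related genes 2 did not overlap, Psmb9 and Ubqln4, beside 7.63% of all tested genes. Pomp, the chaperone of core maturation, was at 133, 121, 86.3 and 135 FPKM in microglia and at 148, 302, 76.4 and 81.3 in macrophages, a difference of 0.14 ± 0.51 (adjusted p = 0.932).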

How the data were processed

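Messenger RNA of 4 microglial and 4 macrophage libraries was compared. The submitters' processing notes name the tools bcl2fastq 1.8.4 and Cufflinks 2.1.1 and the build mm9; the aligner is not given in the sources used here, nor is the annotation. The deposited values are FPKM estimated by the authors per gene, per the file headers; FPKM are not counts, so no count test was run, and the deposited intervals were not used because 17 to 31 members per library had an FPKM outside its own interval. Strand is not stated. FPKM does not correct for composition, so a few abundant transcripts lower the rest.

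Rows were joined on identifier, symbol and locus, rows of one symbol were summed, and 9 symbols whose estimate failed in some library, none of them a member, were left out. Genes reaching 1 FPKM in 4 or more libraries were fitted on log2(FPKM + 1) in limma 3.58.1 (R 4.3.3). The eBayes step followed the intensity trend, with no covariate and Benjamini-Hochberg adjustment over 9352 genes. The fit was also run on simulated data, with independent noise and changes larger than that of any member. That run does not show what the fit can detect at the size of the members' differences. Ratios were compared with exact permutation tests in Python 3.11.15 with scipy 1.17.1. Depth was estimated from the most frequent low FPKM of genes with 1 transcript, assuming fragments of 150 bases, and no test used it. Promoter windows came from a RefSeq table of GRCm38.p6 and were not joined to mm9 coordinates.

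The members, classes, related genes and markers were chosen with earlier results of these data known. The named genes are the called members, Psmb5, Psmb6 and Psmb7, the activators, and in each class the most and least abundant tested member and the one with the largest difference; of related genes, Psmb8, Psmb9, Psmb10, Pomp and Nfe2l1. Psma3, Psma6, Psmb2, Psmd14, Psmg1 and Ubqln4 were named after their values were seen. One related gene is not reported here. Alternatives covered the pseudocount, the filter, 5 scalings, the trend, library weights, a term for Y-linked expression, repeated symbols and leaving out libraries; leaving out macrophages 6 and 7, alone or with microglia 2, was chosen after seeing the data.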

Additional observations from a re-analysis of the deposited data

Results flagged for a closer look

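In 11 of 138 groups of 4 libraries examined (each of the 46 members, the class sums, the class ratios and the pair ratios in each population), 1 library stood apart from the other 3 by Dixon's test at 95%; chance marks about 1 in 20 groups. Microglia 2 stood above the other microglia for Psmb6, the caspase-like catalytic subunit, at 531 FPKM against 201 to 240, for Psmb2, at 310 FPKM against 107 to 140, and for Psme2, of PA28 alpha-beta, at 224 FPKM against 116 to 132. It also stood apart for the summed beta ring, at 1798 FPKM against 689 to 790, and for the sum of all members, at 3293 FPKM against 2109 to 2298. Macrophage 6 stood above the other macrophages for the core chaperones Psmg3, at 43.1 FPKM against 11.1 to 15.1, and Psmg4, at 71.8 FPKM against 18.6 to 27.1. In microglia 3, Psmc3ip, the recombination factor that matches by name only, was at 16.2 FPKM against 0 to 1.21 in the other microglia. Of the genes that did not pass the filter, Psma8 was at 1.38 FPKM in microglia 4 and listed at 0 in the other microglia, and Psmb11 was at 0.459 FPKM in macrophage 5 against 0.0331 to 0.0892 in the other macrophages. The ratio of beta to alpha sums was 1.89 in macrophage 7 against 1.03 to 1.18 in the other macrophages.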

How the results depend on the processing

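In all 24 alternative settings 0 members were called; of the related genes, 1 was called with library weights and 1 with equal FPKM sums without small RNA. The number of genes called over all genes, 219, moved to 136 with a pseudocount of 0.1, 50 without a filter, 132 with a filter of 5 FPKM, 336 with equal FPKM sums, 335 with equal sums without small RNA, 1075 with library weights, 25 with a term for Y-linked expression and 138 without macrophages 6 and 7; leaving out single libraries gave 119 (without macrophage 8) to 258, with 122 without macrophage 5. The share of called genes that were higher, 70.3%, was 59.5% with upper-quartile scaling, 55.3% with median-of-ratios scaling and 53.4% with quantile normalization. Of 549 alternative values of named members, 498 kept their direction and 51 turned. The filters, the trend and the handling of repeated symbols leave a member's difference unchanged. Their values were therefore bound to keep direction and are counted among the 498. Values on the other side of 0, in log2, were with upper-quartile scaling Psma7 -0.10 and Psmd9 -0.069; with median-of-ratios scaling Psma7 -0.26, Psmc4 -0.025, Psmc6 -0.066 and Psmd9 -0.13; with quantile normalization Psmc6 -0.019, Psmd9 -0.74, Psmg2 -0.31 and Psmc3ip -0.047; with library weights Psma4 0.10 and Psmd9 -0.34; and with a term for Y-linked expression Psma7 -0.086, Psmc2 -0.0032, Psmc6 -0.95, Psmd5 -0.24, Psmd9 -0.16, Psmd10 -0.14 and Psmg2 -0.61. Without microglia 2 and 3 they were Psma4 0.12, Psmc2 -0.19, Psmc6 -0.059, Psmd5 -0.46, Psmd9 -0.69, Psmd10 -0.78, Psme2 0.0023 and Psmg2 -0.31, the median of the 19S chaperones was -0.69, and the log2 differences of Psme1/Psme3 and Psme4/Psme3 were 0.27 and -0.046. Without macrophages 6 and 7 they were Psma7 -0.022 and Psmc3ip -0.083, and without microglia 2 as well Psmd9 -0.41, Psmg2 -0.41, Psmg4 -0.13 and Psmc3ip -0.61. Leaving out single libraries gave Psma7 -0.46 to 0.45, Psmb5 -0.66 to 0.14, Psmc4 -0.069 to 0.53, Psmc6 -0.22 to 0.87, Psmd11 -0.0072 to 0.62, Psmd5 -0.048 to 1.42, Psmd9 -0.55 to 0.43, Psme2 -0.57 to 0.054, Psmg2 -0.64 to 0.79, Psmg4 -0.085 to 0.59 and Psmc3ip -0.17 to 1.20. The log2 difference of Psme1/Psme3 ran from -0.63 to 0.13, of Psmb9/Psmb6 from 1.70 to 2.08 and of Psmb10/Psmb7 from 1.02 to 1.69. With class medians in place of sums, the log2 difference of activators to core was 0.21 and that of ATPases to non-ATPases -0.31. The cause was not tested, except that a filter changes how many genes are tested and that leaving out libraries lowers their number. No paired analysis was possible because the labels number the libraries 1 to 4 and 5 to 8, so that the populations share no number. The lowest values, such as Psme4 at 0.0696 FPKM in microglia 2, rest on few fragments.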
